A study of Mus musculus with 6 samples.

Results

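Aminoacyl-tRNA synthetases are the enzymes that join each amino acid to its transfer RNA, and 36 genes for them were followed in RNA from cultured mouse neural stem cells. They were chosen by name: 20 genes for the cytosolic enzymes and 16 genes, with names ending in 2, for the mitochondrial ones, out of 27694 genes for which a summed level could be made. The table listed 35 of them by the names in the rule, and Mars1 was found under its older symbol Mars. All 36 had a mean of at least 1 FPKM and were tested with the other genes, 12080 in all. FPKM counts fragments per kilobase of transcript and per total of fragments in the library, so levels of different genes are given per length.

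There were 3 cultures labelled vimentin knockout (KO) and 3 labelled wild type (WT), all of the C57/Bl6 strain, untreated, and kept undifferentiated in serum-free B27 medium with FGF-2 and EGF. The study compared them to learn how RNA levels differ when vimentin, an intermediate filament protein, is deleted. Ribosomal RNA was removed from total RNA before strand-specific, paired-end sequencing. How the allele was made, the age of the mice and whether each culture came from its own animal are not stated in the labels, so p-values reflect only how far these samples spread, and that spread may be technical.

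Depth was 28.4 to 32.5 M reads of 150 bases in the libraries labelled KO and 28.9 to 36.2 M in those labelled WT, as worked out from the deposited coverage. Vim itself, the targeted gene, had 650, 732 and 624 FPKM in the libraries labelled KO, against 191, 179 and 186 FPKM in those labelled WT. Its RNA was thus higher where the labels call it deleted, and for this reason the samples are named by their labels throughout, and each direction is that of the labels. All 7 neural stem cell markers on the list had a mean of at least 1 FPKM, with sums of 1103 to 1199 FPKM in the libraries labelled KO and 889 to 1122 FPKM in those labelled WT. One of them, Sox2, which has a single exon, was listed at 0 in each library labelled KO and at 53.3, 0 and 28.4 FPKM in those labelled WT. None of the microglial (5 of 5 in the table), endothelial (3 of 4) or fibroblast (4 of 4) markers had a mean of 1 FPKM, against 3 of 6 neuronal markers, with sums of 91.3 to 140.0 FPKM in the libraries labelled KO and 69.6 to 182 FPKM in those labelled WT. In bulk RNA, fewer cells of a type and less RNA per cell cannot be told apart.

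Protein synthesis in an animal cell runs in the cytosol and, for a few proteins of the respiratory chain, inside the mitochondria, and each place needs its own set of charged transfer RNAs. Most amino acids have one gene for the cytosolic enzyme and another for the mitochondrial enzyme. Glycine and lysine are the known exceptions in mammals, where Gars and Kars serve both places, and mitochondrial glutaminyl-tRNA is made by way of the glutamate enzyme. When charging falls behind, uncharged transfer RNA activates the kinase GCN2, translation slows, and the transcription factor ATF4 is made, whose targets in mammals include many cytosolic synthetase genes.

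Synthetase genes that rose in the libraries labelled KO were nearly all cytosolic, with Eprs, Gars, Iars, Lars and Cars each more than 2-fold higher between the means. Of the 20 cytosolic genes, 9 rose and 11 did not pass, while of the 16 mitochondrial genes 1 rose and 15 did not pass. No gene of either set fell. A gene was called when its Benjamini-Hochberg adjusted p over all 12080 genes was under 0.05 in limma on log2(FPKM + 1), a scale that understates the change of low genes. Among all genes tested, 3.65% were called higher and 3.25% lower, 6.9% in all, against 45.0% and 0% of the cytosolic genes. The median log2 fold change was 0.73 for the cytosolic genes, 0.05 for the mitochondrial genes and -0.02 for all genes tested. With no adjustment, 13 cytosolic genes were higher and 2 lower at a p under 0.05, and 1 mitochondrial gene was higher and 3 lower, where 12.7% of all genes tested were higher and 11.9% lower. By limma with voom on estimated reads, 11 cytosolic genes were called higher and none lower, and 1 mitochondrial gene higher and none lower, against 5.52% of all genes higher and 3.68% lower. The difference between the compartments was not tested as such, because the genes were chosen with earlier results of these data known.

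The summed level of the cytosolic genes was 1280, 1213 and 1210 FPKM in the libraries labelled KO, against 778, 808 and 803 FPKM in those labelled WT. That of the mitochondrial genes was 132, 123 and 132 FPKM in the libraries labelled KO, against 130.2, 128 and 125 FPKM in those labelled WT. Every library labelled KO thus had a higher cytosolic sum than every library labelled WT, by 1.55-fold between the means, whereas the mitochondrial sums overlapped, with a ratio of 1.01. Measured gene by gene against the WT-labelled mean, the median log2 difference of the cytosolic genes was 0.70, 0.70 and 0.74 in the libraries labelled KO, and -0.02, 0.04 and 0.04 in those labelled WT, which help to form that mean. For the mitochondrial genes the medians were 0.04, -0.01 and 0.03 in the libraries labelled KO, and 0.00, 0.07 and -0.09 in those labelled WT.

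**Figure D1:**
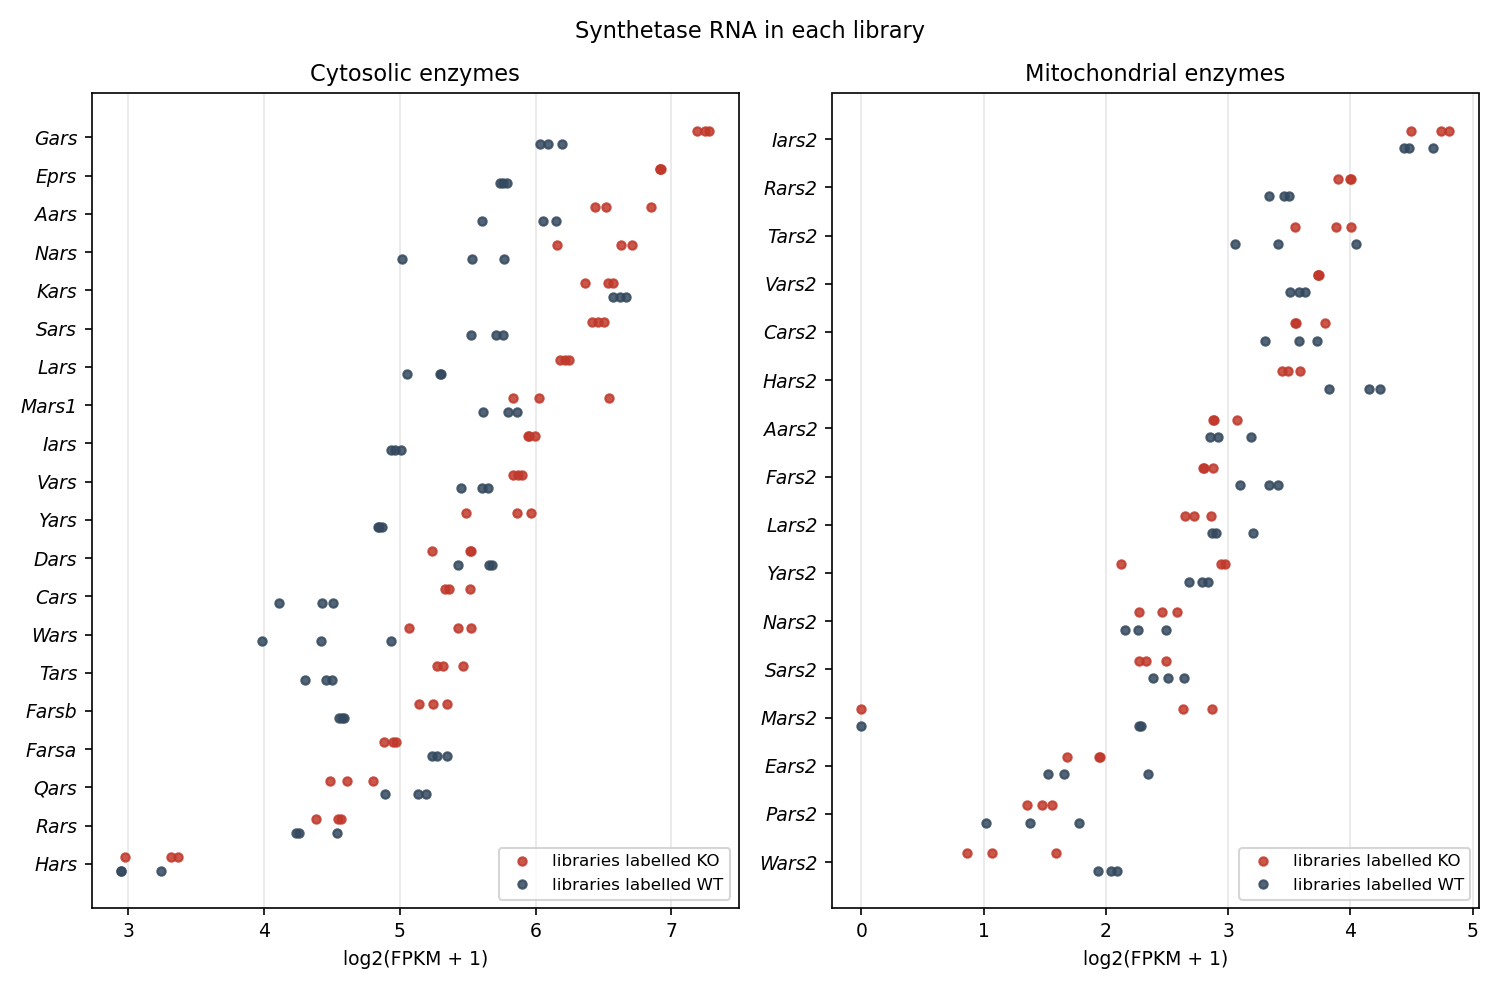
Level of each synthetase gene in each library, as log2(FPKM + 1) on the horizontal axis, with cytosolic enzymes on the left and mitochondrial enzymes on the right; each point is 1 library, red for those labelled KO and dark blue for those labelled WT. The 3 red points lie to the right of all 3 dark blue points for 13 of 20 cytosolic genes and 2 of 16 mitochondrial genes.

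Of the cytosolic genes, 13 had their 3 values in the libraries labelled KO above all 3 in those labelled WT and 3 had them below, where 16.9% and 16.4% of all genes tested did so. Among the mitochondrial genes these numbers were 2 and 4. Levels in the libraries labelled WT ranged from a mean of 7.29 FPKM for Hars to 97.4 FPKM for Kars among cytosolic genes, and from 1.68 FPKM for Pars2 to 22.2 FPKM for Iars2 among mitochondrial genes. In the libraries labelled KO the highest cytosolic gene was Gars, with a mean of 150.0 FPKM, and the lowest was again Hars at 8.37 FPKM.

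In animal cells 8 of the cytosolic synthetases are held together in the multi-synthetase complex: those for aspartate, glutamate and proline (a fused enzyme), isoleucine, lysine, leucine, methionine, glutamine and arginine. Of these 8 genes, 3 rose and 5 did not pass, and none fell. Eprs, the fused glutamate and proline enzyme, was at 119.6, 120.3 and 119.8 FPKM in the libraries labelled KO, against 52.5, 54.3 and 53.1 FPKM in those labelled WT. These values lay close together within each group and far apart between them, and Eprs had the smallest adjusted p of the 36 genes (log2 fold change 1.16, SE 0.07, adjusted p = 0.00172, limma). Eprs sits on chromosome 1 (plus strand, 185363044 to 185428360). Iars, which charges the isoleucine tRNA and clears valine that it has joined by mistake, had 60.7, 60.9 and 62.9 FPKM in the libraries labelled KO, against 30.2, 31.1 and 29.5 FPKM in those labelled WT. That is a 2.03-fold difference between the means (log2 fold change 1.00, SE 0.07, adjusted p = 0.00254, limma), at chromosome 13, plus strand, 49682100 to 49734748. Lars, the leucine enzyme, which in human cells also takes part in sensing leucine for mTORC1, had 74.8, 71.3 and 73.5 FPKM in the libraries labelled KO, against 38.5, 32.2 and 38.3 FPKM in those labelled WT. Its means differed by 2.01-fold (log2 fold change 1.00, SE 0.10, adjusted p = 0.00663, limma), at chromosome 18, minus strand, 42202350 to 42262145.

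The other 5 enzymes of the complex did not pass. Kars, which makes lysyl-tRNA for both compartments, had the highest level of any synthetase in the libraries labelled WT and was at 91.7, 94.0 and 81.3 FPKM in the libraries labelled KO, against 94.1, 100.4 and 97.7 FPKM in those labelled WT (log2 fold change -0.13, SE 0.09, adjusted p = 0.411, limma). Dars, the aspartate enzyme, averaged 42.2 ± 4.69 FPKM in the libraries labelled KO and 47.3 ± 4.52 FPKM in those labelled WT (SD, n = 3), and Rars, the arginine enzyme, averaged 21.6 ± 1.55 and 19.4 ± 2.49 FPKM in the same groups. For Dars and Rars the groups overlapped. Qars, the glutamine enzyme, was at 26.9, 23.4 and 21.5 FPKM in the libraries labelled KO, against 28.6, 34.1 and 35.6 FPKM in those labelled WT (log2 fold change -0.44, SE 0.13, adjusted p = 0.106, limma), but it shares an assembled locus with its neighbour Qrich1, so its value is uncertain. Mars1, the methionine enzyme, had 92.2, 64.0 and 56.0 FPKM in the libraries labelled KO, against 57.1, 48.0 and 54.6 FPKM in those labelled WT (log2 fold change 0.37, SE 0.20, adjusted p = 0.303, limma). This value is uncertain as well, since the locus is joined to Mbd6 in the assembly. The log2 fold change of Mars1 was 0.88 with voom on estimated reads (adjusted p = 0.00888, limma) and -2.18 when only the highest isoform was used.

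**Figure D2:**
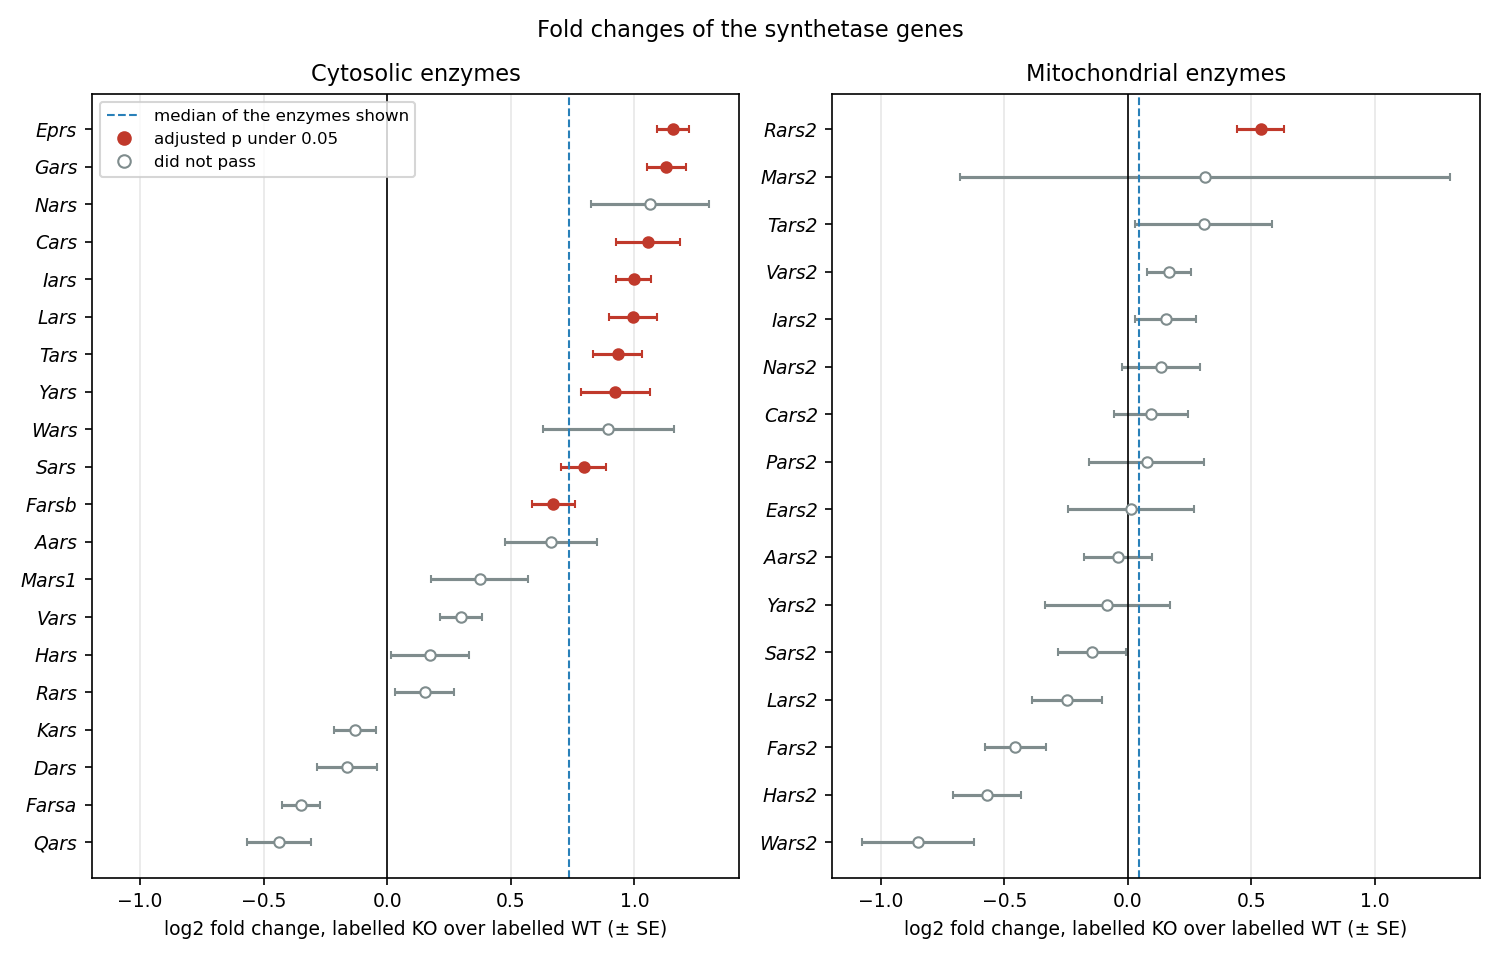
Log2 fold change of each gene, libraries labelled KO over those labelled WT, on the log2(FPKM + 1) scale, with its standard error from limma; filled red points had an adjusted p under 0.05 and the dashed line marks the median of the genes in the panel. The median lies at 0.73 for the 20 cytosolic genes and at 0.05 for the 16 mitochondrial genes.

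Outside the complex there are 12 cytosolic genes, of which 6 rose and 6 did not pass, and none fell. Gars, which makes glycyl-tRNA for both compartments, had 154, 145 and 151 FPKM in the libraries labelled KO, against 67.3, 64.6 and 72.4 FPKM in those labelled WT (log2 fold change 1.13, SE 0.08, adjusted p = 0.00254, limma). It became the most abundant of the 36 transcripts per length in each library labelled KO. Gars sits on chromosome 6 (plus strand, 55038007 to 55079500), and genes of that chromosome were shifted upward as a group, with a median log2 fold change of 0.27 and 83 of 604 tested genes called higher, against medians of -0.09 to 0.08 on the other autosomes. The part of that shift in the Gars value was not tested. The other called genes of both compartments lie on other chromosomes.

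Tars, the threonine enzyme (chromosome 15, minus strand, 11383663 to 11399658), was at 43.2, 37.7 and 38.8 FPKM in the libraries labelled KO, against 18.7, 20.97 and 21.6 FPKM in those labelled WT (log2 fold change 0.93, SE 0.10, adjusted p = 0.0076, limma). Sars, which charges serine tRNA and the selenocysteine tRNA (chromosome 3, minus strand, 108424865 to 108445209), was at 89.9, 87.0 and 84.2 FPKM in the libraries labelled KO, against 45.1, 53.2 and 51.2 FPKM in those labelled WT (log2 fold change 0.79, SE 0.09, adjusted p = 0.00846, limma). Cars, the cysteine enzyme (chromosome 7, minus strand, 143556708 to 143600090), had 40.2, 44.8 and 39.4 FPKM in the libraries labelled KO, against 16.3, 21.8 and 20.5 FPKM in those labelled WT, a 2.12-fold difference (log2 fold change 1.06, SE 0.13, adjusted p = 0.0106, limma). In none of these genes did the groups overlap. Yars, the tyrosine enzyme (chromosome 4, plus strand, 129189760 to 129219607), was spread more widely among the libraries labelled KO, at 61.6, 43.8 and 57.3 FPKM, than among those labelled WT, at 27.6, 27.7 and 28.2 FPKM (log2 fold change 0.92, SE 0.14, adjusted p = 0.0195, limma). The call of Yars was lost in 4 of the 6 fits that left out 1 library, those without KO 1, KO 3, WT 1 or WT 3 (highest adjusted p = 0.0778, limma). That of Cars was lost without KO 1 or KO 2 (highest adjusted p = 0.0507, limma), and with reference transcripts only (0.0557).

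Phenylalanyl-tRNA synthetase is built from 2 kinds of subunit, the catalytic alpha chain (Farsa) and the beta chain (Farsb), and their log2 fold changes had opposite signs. Farsb (chromosome 1, minus strand, 78417975 to 78488897) was at 34.3, 39.7 and 37.0 FPKM in the libraries labelled KO, against 22.5, 22.8 and 23.1 FPKM in those labelled WT (log2 fold change 0.67, SE 0.09, adjusted p = 0.0117, limma). Farsa, at 28.6, 30.4 and 29.9 FPKM in the libraries labelled KO, against 37.7, 36.7 and 39.7 FPKM in those labelled WT, lay below in each library labelled KO and missed the threshold (log2 fold change -0.35, SE 0.08, adjusted p = 0.0543, limma). Among genes with a mean of at least 5 FPKM the adjusted p of Farsa was 0.046 (limma). The Farsb call was lost without KO 2 or KO 3 (highest adjusted p = 0.0573, limma) and with reference transcripts only (0.222), and no test of the difference between the subunits was made.

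Several cytosolic genes had large differences that their spread did not let through. Nars, the asparagine enzyme, was at 103, 98.1 and 70.6 FPKM in the libraries labelled KO, against 31.4, 45.2 and 53.3 FPKM in those labelled WT (log2 fold change 1.06, SE 0.24, adjusted p = 0.0578, limma), and it was called with FPKM totals set equal between libraries (adjusted p = 0.0434), with quantile normalization (0.0452) and with voom on estimated reads (0.0498). Wars, the tryptophan enzyme, which interferon is known to induce, was at 32.5, 45.1 and 42.2 FPKM in the libraries labelled KO, against 20.4, 29.7 and 14.8 FPKM in those labelled WT (log2 fold change 0.89, SE 0.26, adjusted p = 0.108, limma). Aars, the alanine enzyme, was at 90.5, 85.9 and 114 FPKM in the libraries labelled KO, against 65.6, 70.1 and 47.6 FPKM in those labelled WT (log2 fold change 0.66, SE 0.19, adjusted p = 0.0958, limma). For Nars, Wars and Aars every value in the libraries labelled KO was above every value in those labelled WT. Vars, the valine enzyme, averaged 57.4 ± 1.38 FPKM in the libraries labelled KO and 46.5 ± 3.39 FPKM in those labelled WT (adjusted p = 0.0977, limma). Hars, the histidine enzyme, averaged 8.37 ± 1.32 and 7.29 ± 0.989 FPKM in the same groups (SD, n = 3), which overlapped, and it shares an assembled locus with Dnd1.

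Synthetases fall into 2 structural classes that bind ATP and the tRNA in different ways. Of the 9 cytosolic genes of class I, 4 rose (Iars, Lars, Cars and Yars), and of the 10 of class II, 4 rose (Gars, Tars, Sars and Farsb). Eprs, which holds 1 enzyme of each class, rose too. The medians of the log2 fold changes were 0.89 in class I and 0.67 in class II, and 0.26 within the multi-synthetase complex and 0.84 outside it. These differences between subsets of the genes are given with no test.

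The promoters of the cytosolic genes are shown because several of these genes rose and because a short sequence to which ATF4 binds with a C/EBP partner is known in some mammalian synthetase promoters. The core of that sequence, TGATGNAAN, or NTTNCATCA on the other strand, was looked for in RefSeq promoter windows (build GRCm38.p6), each with 250 bases before and 50 after a gene's annotated start. It was the only motif searched. Windows were on hand for 27 of the 36 genes, and the core was found in 5 of 13 cytosolic genes (38.5%) and in 0 of 14 mitochondrial genes, where 3.95% of all 32851 windows hold it. Each line below runs 5′ to 3′ along the gene, in lower case, with the core in capitals.
Gars, upstream bases, chr6:55037751-55038000, plus strand: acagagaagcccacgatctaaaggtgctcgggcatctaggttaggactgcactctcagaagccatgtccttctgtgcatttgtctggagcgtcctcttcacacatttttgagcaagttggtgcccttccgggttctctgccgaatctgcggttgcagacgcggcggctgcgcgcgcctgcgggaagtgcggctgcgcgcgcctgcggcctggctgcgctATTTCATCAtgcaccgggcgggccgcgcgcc
Tars, upstream bases, chr15:11399659-11399908, minus strand: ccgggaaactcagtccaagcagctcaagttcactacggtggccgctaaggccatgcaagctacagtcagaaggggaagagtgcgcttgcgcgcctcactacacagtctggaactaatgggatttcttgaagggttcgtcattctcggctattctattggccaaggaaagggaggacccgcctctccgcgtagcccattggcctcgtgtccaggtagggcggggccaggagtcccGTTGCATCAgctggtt
Aars, upstream bases, chr8:111033592-111033841, plus strand: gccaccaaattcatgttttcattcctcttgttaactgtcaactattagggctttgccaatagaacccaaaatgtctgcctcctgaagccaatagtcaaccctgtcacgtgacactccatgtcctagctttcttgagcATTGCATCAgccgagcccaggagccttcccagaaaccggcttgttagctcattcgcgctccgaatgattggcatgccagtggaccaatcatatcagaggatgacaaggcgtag
Yars, around the start, chr4:129189896-129189924, plus strand: cgagctcagcTGATGCAACccgacgggac
Iars, around the start, chr13:49682126-49682154, plus strand: cactgtcagtATTGCATCAcctccagacg

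In Gars the core begins 31 bases and in Tars 16 bases before the annotated start, and in Aars 113 bases before it. Aars has another match at base 9 after the start, and the matches in Yars and Iars begin at bases 4 and 7. Yars carries it in the forward sense, and the others carry it on the opposite strand, so that the capitals read ATTTCATCA in Gars, GTTGCATCA in Tars and ATTGCATCA in Aars and Iars. Of the 5 genes with a match, 4 rose (Gars, Tars, Yars and Iars). Of the 8 cytosolic genes with a window and no match, 3 rose (Eprs, Sars and Farsb), and of the 7 with no window, 2 rose (Cars and Lars). A match is a description of the letters in the window, and its absence says nothing about binding elsewhere.

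The gene sums rest on 270 isoforms, of which 99 had a mean of at least 1 FPKM. None of the 99 was called when isoforms were tested on their own in limma (24 had an unadjusted p under 0.05), in a fit in which 0.139% of all 27399 isoforms tested were called and 10.2% had an unadjusted p under 0.05. No other tool was run on isoforms. The closest was the main isoform of Gars, ENSMUST00000003572, at 151, 141 and 148 FPKM in the libraries labelled KO, against 66.5, 62.2 and 71.6 FPKM in those labelled WT (adjusted p = 0.0508, limma). The 32-exon isoform of Eprs, ENSMUST00000046514, was at 107, 102 and 102 FPKM in the libraries labelled KO, against 46.6, 35.7 and 48.8 FPKM in those labelled WT (adjusted p = 0.0731, limma). In Gars and Eprs a long annotated isoform thus held most of the level. When each gene was represented by its highest isoform alone, 6 of the 10 called genes no longer passed (Cars, Farsb, Iars, Sars, Yars and Rars2), each with the same direction.

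Wars was carried by several isoforms with unlike values. Its 10-exon isoform ENSMUST00000161410 was at 11.1, 10.6 and 6.18 FPKM in the libraries labelled KO, against 1.62, 1.54 and 1.05 FPKM in those labelled WT (log2 fold change 2.07, adjusted p = 0.0937, limma). The more abundant isoform ENSMUST00000109848 was at 16.3, 30.5 and 32.2 FPKM in the libraries labelled KO, against 17.6, 26.5 and 10.3 FPKM in those labelled WT, and these groups overlapped. In Mars1 the split differed between libraries of 1 group: the 21-exon isoform ENSMUST00000037290 was at 64.8, 1.22 and 2.83 FPKM in the libraries labelled KO, against 33.7, 34.1 and 42.1 FPKM in those labelled WT. Assembled isoforms of 36 and 33 exons in that locus reached 20.8 FPKM in KO 2 and 31.9 FPKM in KO 3, and were at 0 and 0.0780 FPKM in KO 1.

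Among the mitochondrial enzymes, Rars2, which charges the mitochondrial arginine tRNA, was the one gene that rose. It was at 13.9, 15.1 and 15.0 FPKM in the libraries labelled KO, against 9.07, 10.3 and 10.0 FPKM in those labelled WT (log2 fold change 0.54, SE 0.10, adjusted p = 0.0323, limma). Rars2 sits on chromosome 4 (plus strand, 34614957 to 34660167). The call was lost in 5 of the 6 fits that left out 1 library, all but that without WT 2 (highest adjusted p = 0.123, limma). It was also lost when isoforms of every class were summed (log2 fold change 0.34, adjusted p = 0.363, limma); the isoforms of Rars2 that were left out held 0 to 0.268 FPKM in the libraries labelled KO and 0.0681, 4.596 and 0.901 FPKM in WT 1, WT 2 and WT 3.

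The mitochondrial genes with the largest other differences were lower in the libraries labelled KO, and none of them passed. Wars2, the tryptophan enzyme, was at 1.10, 0.816 and 2.01 FPKM in the libraries labelled KO, against 3.12, 3.26 and 2.83 FPKM in those labelled WT (log2 fold change -0.85, SE 0.23, adjusted p = 0.0857, limma). Hars2, the histidine enzyme, was at 10.2, 9.86 and 11.04 FPKM in the libraries labelled KO, against 17.9, 16.8 and 13.2 FPKM in those labelled WT (log2 fold change -0.57, SE 0.14, adjusted p = 0.0681, limma). Fars2, a phenylalanine enzyme of 1 chain, was at 6.35, 5.96 and 5.95 FPKM in the libraries labelled KO, against 9.63, 9.08 and 7.54 FPKM in those labelled WT (log2 fold change -0.46, SE 0.12, adjusted p = 0.0914, limma). The groups did not overlap in any of the 3, nor in Lars2, the leucine enzyme, which averaged 5.70 ± 0.50 FPKM in the libraries labelled KO and 6.98 ± 1.05 FPKM in those labelled WT (adjusted p = 0.346, limma). Without WT 3, Hars2 was called lower (log2 fold change -0.69, adjusted p = 0.0447, limma).

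The remaining 11 mitochondrial genes had log2 fold changes between -0.15 (Sars2) and 0.31 (Mars2). Iars2, the isoleucine enzyme, was the most abundant, at 24.8 ± 2.88 FPKM in the libraries labelled KO and 22.2 ± 2.09 FPKM in those labelled WT (SD, n = 3). Vars2, the valine enzyme, was at 12.4, 12.3 and 12.3 FPKM in the libraries labelled KO, against 11.4, 10.4 and 10.9 FPKM in those labelled WT, a small difference with no overlap that did not pass (adjusted p = 0.31, limma). Mars2, the methionine enzyme, has a single exon and had listed values of 5.18, 0 and 6.32 FPKM in the libraries labelled KO, against 0, 3.83 and 3.89 FPKM in those labelled WT, so that 1 library of each group was at 0. Ears2, the glutamate enzyme, shares an assembled locus with Gga2, and Tars2, the threonine enzyme, with Ecm1 and Rprd2. Pars2, the proline enzyme, was the lowest in the libraries labelled WT, at 1.77 ± 0.197 FPKM in the libraries labelled KO and 1.68 ± 0.706 FPKM in those labelled WT (SD, n = 3).

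**Figure D3:**
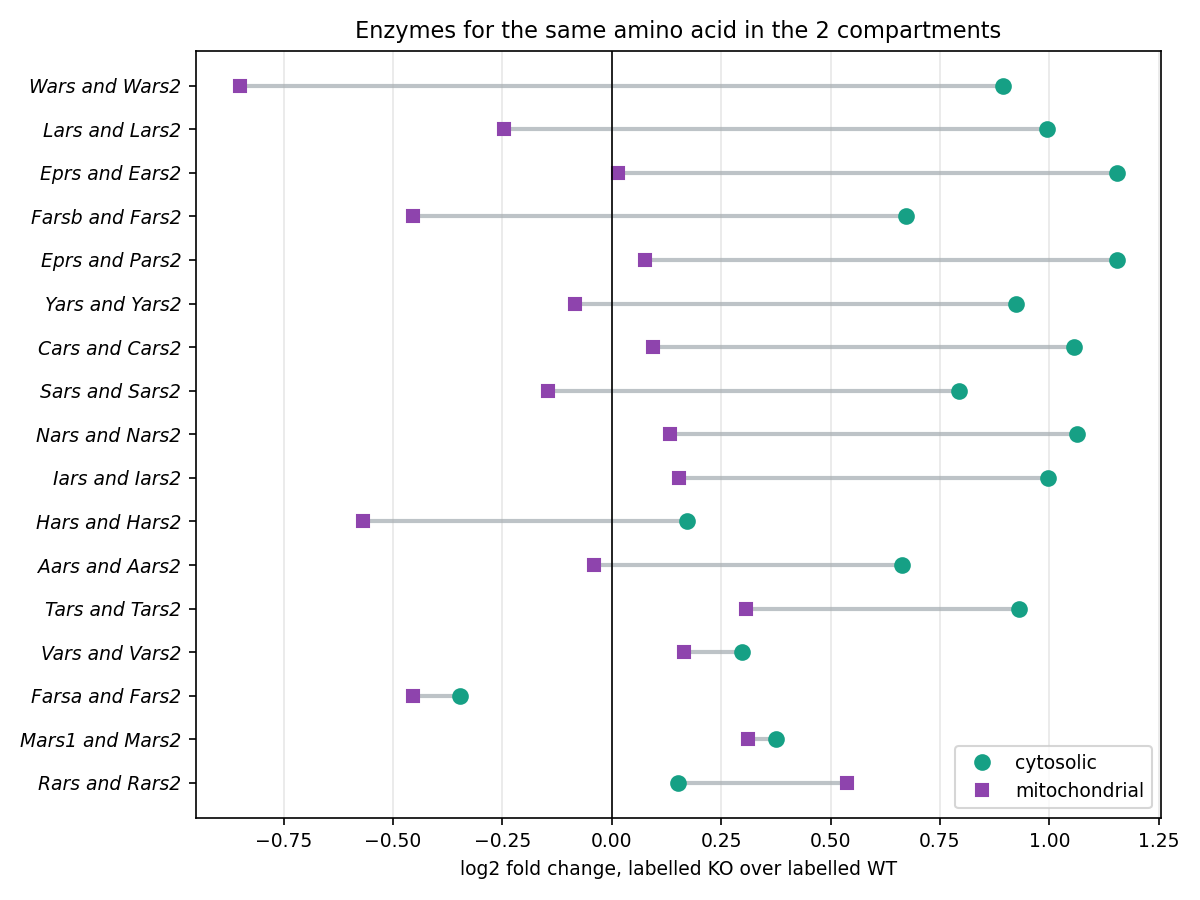
Log2 fold change, libraries labelled KO over those labelled WT, of each mitochondrial enzyme (purple square) and of the cytosolic enzyme for the same amino acid (green circle), joined by a grey line. The circle lies to the right of the square in 16 of 17 pairings, and Rars and Rars2 are the exception.

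Set side by side by amino acid, the cytosolic gene had the more positive log2 fold change in 16 of 17 pairings, with a median difference of 0.93. Eprs and Fars2 each stand in more than 1 pairing, so these are not independent. The log2 ratio of the pair was higher in each library labelled KO than in any labelled WT for 12 pairings, lower for 1 and overlapping for 4. The widest gap was between Wars and Wars2 (0.89 and -0.85), which are uncalled genes, and the next were Lars and Lars2 (1.00 and -0.25), Eprs and Ears2 (1.16 and 0.01) and Farsb and Fars2 (0.67 and -0.46). For leucine, the log2 ratio of the cytosolic to the mitochondrial level was 3.39, 3.45 and 3.57 in the libraries labelled KO, against 2.40, 1.85 and 2.43 in those labelled WT. For serine it was 4.01, 4.13 and 4.14 in the libraries labelled KO, against 3.14, 3.12 and 3.20 in those labelled WT. Because both genes of a pair are read from the same library, such a ratio does not depend on how that library was scaled, beyond the effect of the pseudocount of 1.

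Arginine was the 1 pairing in the other direction. Rars was at 22.7, 22.3 and 19.8 FPKM in the libraries labelled KO, against 17.8, 22.3 and 18.2 FPKM in those labelled WT, and the log2 ratio of Rars to Rars2 was 0.67, 0.53 and 0.38 in the libraries labelled KO, against 0.90, 1.04 and 0.80 in those labelled WT. Histidine was the 1 amino acid whose mitochondrial gene was the more abundant per length in both groups. Hars and Hars2 start side by side on opposite strands of chromosome 18, and their log2 fold changes were 0.17 and -0.57.

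**Figure D4:**
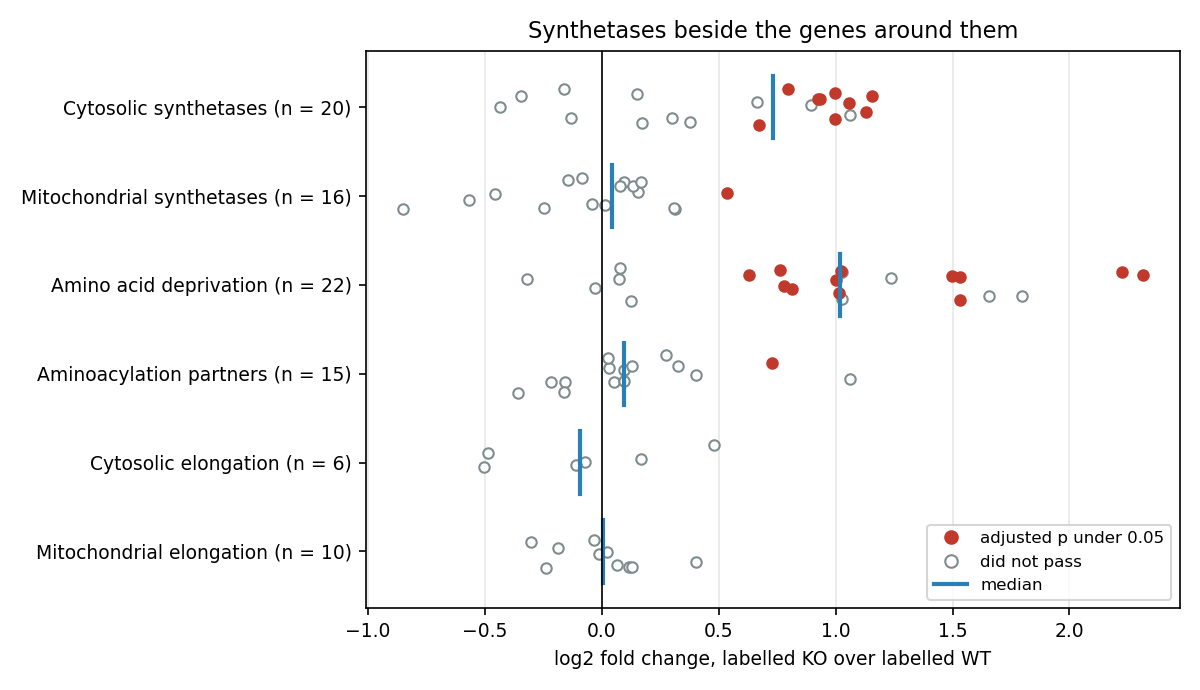
Log2 fold change, libraries labelled KO over those labelled WT, of the tested genes of 6 lists, 1 point per gene spread at random in height; filled red points had an adjusted p under 0.05 and the blue bar is the median of the list. The medians lie at 0.73 for cytosolic synthetases, 0.05 for mitochondrial synthetases, 1.02 for amino acid deprivation genes and 0.09 for aminoacylation partners. They lie at -0.09 for the list named cytosolic elongation and 0.00 for that named mitochondrial elongation. The latter also holds initiation, release and recycling factors.

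Of 15 tested aminoacylation partners, 1 rose and 14 did not pass, with a median log2 fold change of 0.09. A share of 1 in 15 is near the 3.65% of all genes tested that were called higher, so it is no result about the partners (3 were higher and none lower at an unadjusted p under 0.05; none by voom). The gene that rose was Xpot, the exportin that carries mature tRNA out of the nucleus, at 38.7, 46.8 and 49.8 FPKM in the libraries labelled KO, against 27.2, 25.4 and 27.6 FPKM in those labelled WT (log2 fold change 0.73, SE 0.11, adjusted p = 0.0223, limma). The Xpot call was lost in each fit that left out 1 library but that without KO 1 (highest adjusted p = 0.0915, limma). RNAs for the scaffold proteins of the multi-synthetase complex did not pass. Aimp1 averaged 17.4 ± 0.449 FPKM in the libraries labelled KO and 19.5 ± 1.75 FPKM in those labelled WT, and Aimp2 averaged 9.74 ± 0.784 and 9.63 ± 2.14 FPKM. The third, Eef1e1, averaged 20.5 ± 0.537 FPKM in the libraries labelled KO and 16.2 ± 1.72 FPKM in those labelled WT (SD, n = 3; adjusted p = 0.126, limma), and its groups did not overlap.

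Elongation factors take the charged tRNA to the ribosome and move it along. The list named for them held 6 cytosolic and 10 mitochondrial genes. Its mitochondrial part also takes in factors for initiation (Mtif2, Mtif3), release (Mtrf1, Mtrf1l) and ribosome recycling (Mrrf, Gfm2). No gene of the list was called in limma. At an unadjusted p under 0.05 in limma, 1 was higher and 3 lower, and by voom none was called higher and 2 lower. The median log2 fold changes were -0.09 for the cytosolic and 0.00 for the mitochondrial part. Eef2, the cytosolic translocase, was at 1150.2, 1059 and 942 FPKM in the libraries labelled KO, against 1413, 1444 and 1551 FPKM in those labelled WT (log2 fold change -0.49, SE 0.12, adjusted p = 0.0706, limma). Eef1a1, which brings the charged tRNA to the ribosome, was at 3275, 2782 and 2936 FPKM in the libraries labelled KO, against 4404, 3770.5 and 4601 FPKM in those labelled WT (log2 fold change -0.50, SE 0.15, adjusted p = 0.108, limma). With voom on estimated reads these 2 genes were called lower.

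The list named for the amino acid deprivation pathway had 12 genes that rose in the libraries labelled KO. It holds genes of the GCN2 route and known targets of ATF4. Amino acid supply and tRNA charging were not measured, so the name is only that of the list. Of 24 listed symbols 23 were found, since Gcn1 stands there as Gcn1l1, which was listed too, and 22 were tested. Of those tested, 12 rose, 10 did not pass and none fell. The median log2 fold change was 1.02, and 3.65% of all genes tested rose. Without KO 3, 7 of the 22 were called higher, against 1.11% of all genes higher and 1.38% lower. Mthfd2, a mitochondrial folate enzyme, was at 55.4, 57.7 and 54.8 FPKM in the libraries labelled KO, against 17.6, 17.5 and 21.3 FPKM in those labelled WT (log2 fold change 1.53, SE 0.10, adjusted p = 0.00239, limma). The other called genes with the smallest p were Sesn2 (log2 fold change 2.22), Asns (1.499), which makes asparagine, and Slc7a11 (1.02), which imports cystine. Mthfd2 and Asns lie on chromosome 6, as Gars does. The transporters Slc7a5 and Slc3a2, whose products pair to bring in leucine and other large amino acids, rose by log2 fold changes of 0.81 and 0.78 (SE 0.11 and 0.08). The Slc7a5 call was lost in 3 of the 6 fits that left out 1 library (highest adjusted p = 0.0657, limma). That of Slc3a2 was lost in none of them.

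Upstream genes of that pathway did not pass. The kinase gene Eif2ak4, which encodes GCN2, averaged 5.23 ± 0.36 FPKM in the libraries labelled KO and 4.73 ± 0.57 FPKM in those labelled WT, and its partner Gcn1l1 averaged 35.6 ± 0.955 and 33.8 ± 2.84 FPKM (SD, n = 3). Atf4 itself was at 174, 27.7 and 142 FPKM in the libraries labelled KO, against 20.05, 53.7 and 19.0 FPKM in those labelled WT, so that KO 2 lay below WT 2 and the groups overlapped (log2 fold change 1.65, SE 0.79, adjusted p = 0.262, limma). Ddit3 and Cebpg, which encode proteins of the C/EBP family, rose by 1.00 and 1.01 on the log2 scale. The Ddit3 call was lost in 3 of the 6 fits that left out 1 library (highest adjusted p = 0.0814, limma). That of Cebpg was lost in none of them.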

How the data were processed

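Values came from 1 isoform table of 6 libraries. The authors deposited FPKM for each isoform and library, and a coverage signal (mean reads per base, with no depth scaling). StringTie, TopHat2, Bowtie2, cutadapt and FastQC stand in the submitters' processing notes, with no version. The build is not named there, and 218 of 225 annotated isoforms of the synthetase genes had the same coordinates as in GENCODE M21 (GRCm38). Columns lettered NT were taken as WT by elimination and number, and 0 value columns were left unused.

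FPKM was summed per gene symbol over isoforms of reference transcripts and assembled isoforms overlapping a gene's exons (class codes 0, c, j, e and o; 95506 of 125793 isoforms). Genes with a mean of at least 1 FPKM were fitted with limma 3.58.1 (R 4.3.3) on log2(FPKM + 1) with a mean-variance trend, KO against WT, and p-values were Benjamini-Hochberg adjusted over all of them. Isoforms were fitted likewise. The procedure was tested on simulated data. Tables used Python 3.11.15, pandas 2.3.3 and numpy 2.4.6. Depth came from the ratio of coverage to FPKM. For 2000 bases of RNA, 3 reads correspond to 0.0414 to 0.0529 FPKM, a floor that covers counting error only. Estimated reads for voom were coverage times isoform length over 150.

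The members and lists were chosen with earlier results of these data known. The rule for named genes gave every called synthetase, the 3 uncalled ones per compartment with the largest difference, and up to 4 called genes of each other list, or the 2 with the smallest p. Other genes named were chosen after their values were seen, among them Atf4, Eif2ak4, Gcn1l1, Ddit3, Cebpg, Slc7a5, Slc3a2 and the scaffold genes. Protein sequences were not used here, and some genes of the lists are not reported here. Alternatives were other pseudocounts, filters, scalings, variance models, isoform choices and thresholds, voom, a replicate block and leaving out each library.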

Additional observations from a re-analysis of the deposited data

How the results depend on the processing

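The 10 called synthetases kept their direction in all 22 alternatives. Those that change only the filter, the variance model, the block or the threshold leave each log2 fold change as it was. They could therefore not alter a direction. Higher cytosolic calls numbered 9, and 7 to 9 when 1 library was left out, but 4 with the highest isoform only. Lower cytosolic calls numbered 0, and 1 with a filter of 5 FPKM or an adjusted p of 0.1. Higher mitochondrial calls numbered 1, but 0 with reference transcripts only, every class code, the highest isoform or an adjusted p of 0.01, and 0 to 1 with 1 library left out. Lower mitochondrial calls numbered 0, but 3 at an adjusted p of 0.1 and 0 to 1 with 1 library left out. Higher calls among partners numbered 1, but 0 with reference transcripts, the highest isoform, voom or an adjusted p of 0.01, 2 at 0.1, and 0 to 1 with 1 library left out. The elongation list had 1 lower call with a filter of 5 FPKM, with robust variance and at an adjusted p of 0.1. It had 2 lower calls with voom, and 0 to 1 higher calls with 1 library left out. Deprivation genes had 12 higher calls, but 5 with the highest isoform and 7 at an adjusted p of 0.01, and 7 (without KO 3) to 11 higher and 0 to 1 lower with 1 library left out.

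The cytosolic median was 0.69 with a pseudocount of 5, 0.80 with equal FPKM totals, 0.76 with quantile normalization, 0.83 with reference transcripts, 0.60 with the highest isoform, 0.81 with voom, and 0.67 to 0.81 with 1 library left out. The mitochondrial median was 0.11 with equal FPKM totals, -0.046 with every class code, -0.10 with the highest isoform, and -0.090 to 0.031 with 1 library left out, so its sign was not stable. The cause of these shifts was not tested.

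With the replicate number as a block, 0 cytosolic, 0 mitochondrial, 0 partner and 0 deprivation genes were called, where the block leaves fewer residual degrees of freedom and 0.0414% of all genes were called higher. Libraries with the same number share only a number: the correlations of their deviations from the group means were 0.01, -0.00 and 0.07 for numbers 1 to 3, and 2 of the 3 libraries labelled KO correlated best with another number. With 3 libraries a group, an exact permutation test of 1 gene cannot go below p = 0.1.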

Other observations

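Isoforms within introns or running past a gene, which were left out of the sums, were listed for 13 of the 36 synthetase genes and were highest in WT 2 for most of them. For Lars2 they summed to 0.888, 0.774 and 1.62 FPKM in the libraries labelled KO, against 0.489, 14.5 and 2.17 FPKM in those labelled WT. For Nars2 they summed to 1.99, 2.54 and 1.92 FPKM in the libraries labelled KO, against 0.345, 13.7 and 1.35 FPKM in those labelled WT. For Nars and Sars they were not highest in WT 2, where they stood at 0.347 and 0 FPKM.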
